A study of Mus musculus with 4 samples.

Results

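Motile cilia beat by means of the axoneme, a ring of paired microtubules around a central pair. Genes of that machine whose symbols begin with Cfap (cilia and flagella associated proteins), Dnah (dynein heavy chains), Dnai (dynein intermediate chains), Rsph (radial spokes) or Drc (the nexin-dynein regulatory complex) followed by a digit were followed through the cells of the mouse trachea. The symbols were matched in the table of features, which gave 74 genes of 33697 features: 43 Cfap, 16 Dnah, 4 Dnai, 8 Rsph and 3 Drc genes. The 15 dynein heavy chain genes, whose coding sequences are all at least 11880 bases long, were kept apart from the other 59. The antisense gene Dnah2os was counted with the latter.

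Single-cell RNA was measured in 4 libraries, 1 for each combination of tracheal region and genotype. Every mouse carried P63-CreER, a tamoxifen-dependent Cre made in P63-expressing basal cells, together with Ki67-lsl-Dre and Rosa26-rsr-GFP, which mark basal cells that divided. The control dorsal and control ventral libraries came from Ctnnb1-fl/+ mice, and the knockout dorsal and knockout ventral libraries from Ctnnb1-fl/fl mice, in which the gene of beta-catenin can be deleted in basal cells. All mice received tamoxifen, and the tracheae were taken 10 days later, split into dorsal and ventral parts and dissociated with papain. The Cre acts in basal cells, so a ciliated cell of a knockout trachea lacks the gene only if it descends from a basal cell that recombined. How many mice each library holds, their age and whether they were pooled is not given in the sources used here. Values below are given in the order control dorsal, control ventral, knockout dorsal, knockout ventral.

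The outer and inner dynein arms pull neighbouring microtubules past each other, and the radial spokes, the nexin link and the central apparatus coordinate them. Microtubule inner proteins line the inside of the tubules and make them rigid. In the airway the machine is built by multiciliated cells under the regulators Foxj1, Myb and the RFX factors, which bind a motif named the X-box in the promoters of many cilia genes, and its beating clears mucus.

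Promoter sequence was at hand for 59 of the 74 genes, as 63 windows of 300 bases, 250 before and 50 after the RefSeq start (GRCm38.p6). The X-box core GTTGCC, searched on both strands, lay in 34.9% of the 63 windows, against 12.5% of all 32851 windows of that length. The palindromic form, GTTNCC and GGNAAC separated by 0 to 3 bases, which contains the core where its N is G, lay in 3 of the 63 windows (4.76%) and in 0.804% of all. The forkhead motif GTAAACA, searched on both strands, lay in 4.76% of the 63 windows and 3.65% of all. A match describes these letters only and is no evidence of binding. The 3 windows with the palindromic form belong to Cfap90, Cfap20dc and Cfap298, which holds 2 copies of it. They are printed because the RNA of these genes departed from that of most of the set in the results below, and Dnah10 is added as a heavy chain gene with the core alone. Each stretch of 60 bases is given 5′ to 3′ on the strand of the gene, with the motif in capitals.
Cfap90, chr13:68597379-68597438, plus strand: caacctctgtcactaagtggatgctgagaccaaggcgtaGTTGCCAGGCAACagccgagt
Cfap20dc, chr14:8666356-8666415, minus strand: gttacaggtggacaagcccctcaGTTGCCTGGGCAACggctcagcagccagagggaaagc
Cfap298, farther copy, chr16:90935001-90935060, minus strand: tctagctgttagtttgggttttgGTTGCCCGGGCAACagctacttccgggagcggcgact
Cfap298, nearer copy, chr16:90934882-90934941, minus strand: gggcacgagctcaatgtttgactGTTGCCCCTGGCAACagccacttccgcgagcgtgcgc
Dnah10, chr5:124725025-124725084, plus strand: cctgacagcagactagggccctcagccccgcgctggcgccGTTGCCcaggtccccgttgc
The palindromes begin 21 bases (Cfap90), 102 bases (Cfap20dc), and 188 and 69 bases (Cfap298) before the RefSeq start, and the core of Dnah10 begins 20 bases before it. Of the 14 windows of heavy chain genes 4 held the core and 0 held the palindrome.

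The libraries held between 6744 and 13962 barcodes, of which 6120 to 12971 were kept as cells, and any 2 libraries shared 21 to 57 barcodes (at most 0.511% of either). Cells were classed from their own counts per 10000 UMIs (unique molecular identifiers, each standing for 1 captured RNA molecule): ciliated with at least 5 of Tmem212 and Ccdc153 together, basal with at least 5 of Trp63 and Krt5, secretory with at least 50 of Scgb1a1 and fibroblast with at least 5 of Col1a2. The ciliated class held 1484, 659, 134 and 223 cells with 26474817, 13581184, 4279484 and 5839690 UMIs in all and median depths of 17426.5, 14549, 31012.5 and 28343 UMIs per cell. Levels are CPM (UMIs of a gene per 1000000 UMIs of a class in a library), and they are not divided by transcript length, so they were compared between cells and not between genes. Foxj1, the defining regulator of ciliated cells, was at 922, 921, 651 and 965 CPM in the ciliated class and at 5.42 to 8.95 in fibroblasts. In basal cells it was at 15.8, 17.6, 35.9 and 26.3, and in secretory cells at 8.15, 9.87, 21.6 and 7.50. Ctnnb1 itself stood at 281, 288, 207 and 231 CPM in basal cells and at 298, 292, 260.1 and 287 in ciliated cells. Fibroblasts, in which the Cre should not act, were at 128, 155, 99.2 and 133. UMIs outside the deleted part check nothing, so these counts do not show how far the gene was removed.

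The secretory RNA in the ciliated class was far from even. Scgb1a1, the club cell secretoglobin, was at 23729, 3426, 48108 and 342 CPM there, and a list of 14 secretory genes summed to 77726, 57981, 113097 and 36782, with 0, 0, 1 and 1 of them without a UMI. Of the cells that passed the ciliated rule, 35, 2, 1 and 33 were removed as doublets, and with those kept Scgb1a1 in the knockout ventral library was at 14000.3. Neat1, a long RNA that stays in the nucleus, was at 373, 674, 102 and 726 in ciliated cells and was lowest in the knockout dorsal library in all 4 classes. The part of these differences in the results below was not tested, except where values without such cells are given.

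Axoneme RNA was a property of ciliated cells in all 4 libraries. The 74 genes together took 2.02%, 2.16%, 1.68% and 2.31% of all UMIs of ciliated cells, and between 0.0323% and 0.0500% in basal, secretory and fibroblast cells. A ciliated cell thinned to 5000 UMIs held UMIs of a median of 45, 44, 43 and 45 of the genes, against 2 in basal, 1 in secretory and 2 in fibroblast cells. Thinning left out 438, 244, 40 and 72 shallower ciliated cells, and at full depth the medians were 63, 64, 65 and 66. The heat map of all genes shows the contrast between the ciliated columns and the rest.

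**Figure D1:**
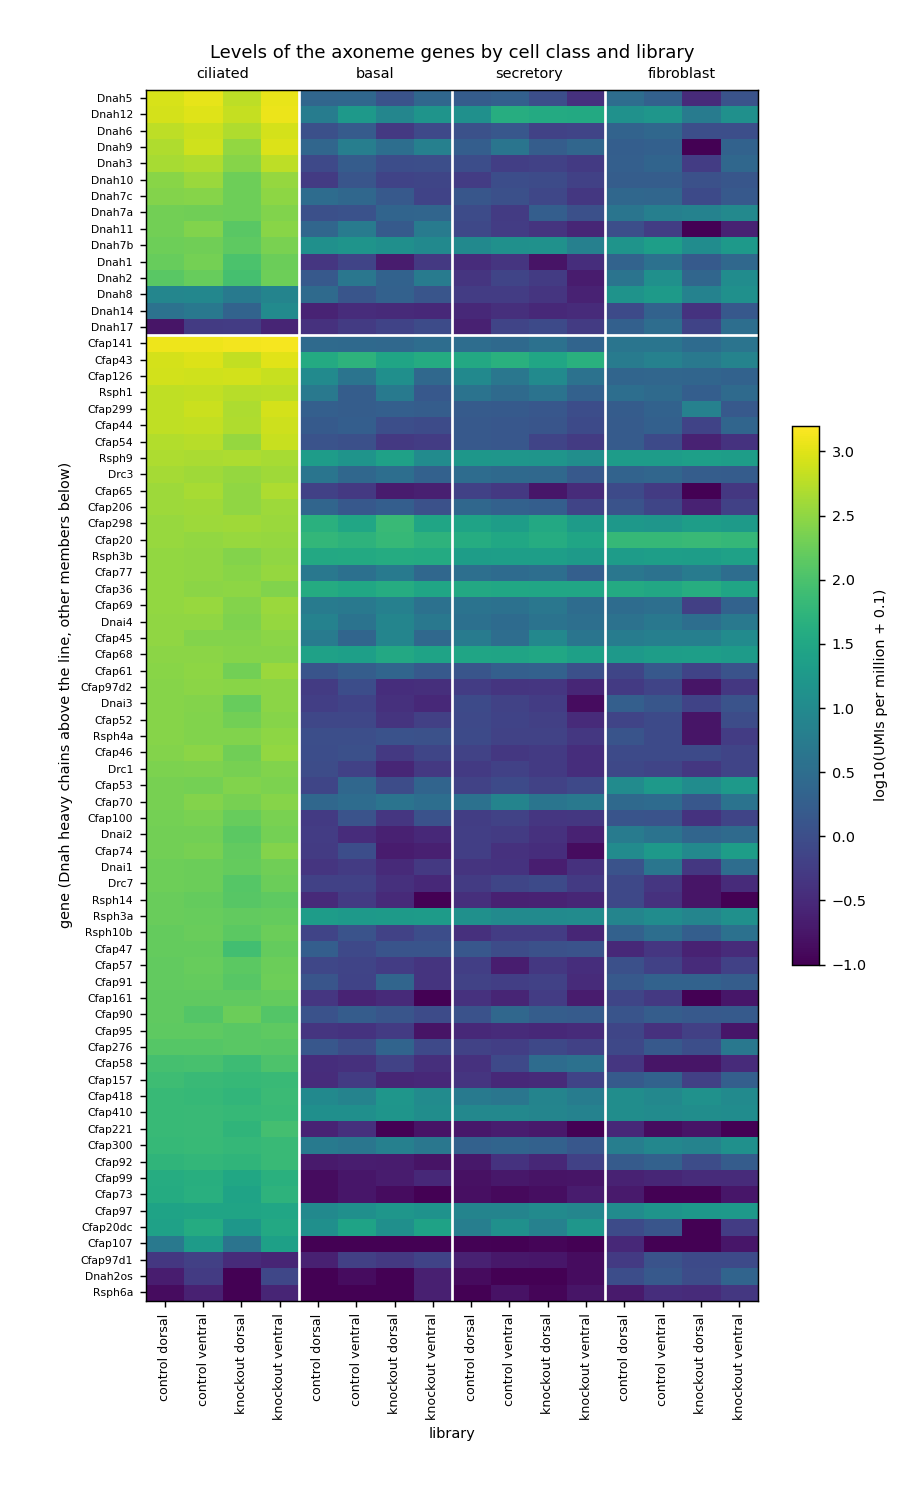
Level of each of the 74 genes (rows) in ciliated, basal, secretory and fibroblast cells of the 4 libraries (columns), as log10 of the level in CPM plus 0.1. The dynein heavy chains lie above the white line. Most rows are bright in the 4 ciliated columns alone, and a few, such as Cfap20 and Cfap36, are visible in every class.

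By their level in fibroblasts of the controls the genes fell into 3 kinds. Of the 74, 4 had under 20 UMIs in ciliated cells of a control and were not classed, namely Rsph6a, Dnah2os, Cfap97d1 and Dnah17. A further 61 stayed under 10% of their ciliated level in fibroblasts of both controls and are called restricted, 7 were at or above 10% in both, and Dnah7b and Cfap300 passed 10% in 1 control. The word restricted refers to fibroblasts alone. Cfap20dc is among the 61, yet it was at 49.0%, 72.1%, 74.1% and 76.9% of its ciliated level in basal cells. Rsph3a and Rsph3b, also among them, were over 10% in basal cells of every library. Over the 61 restricted genes the median level in fibroblasts was 0.568%, 0.458%, 0.371% and 0.394% of that in ciliated cells. In basal cells it was 0.345%, 0.385%, 0.363% and 0.247%, and in secretory cells 0.277%, 0.265%, 0.339% and 0.162%. Fibroblasts do not make motile cilia, so levels of that size are read as background, and the medians of basal and secretory cells lay at or below it.

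The genes at or above 10% in fibroblasts of both controls were Cfap20, Cfap36, Cfap97, Cfap410, Cfap418, Dnah8 and Dnah14. Dnah8 and Dnah14 stayed under 10% of their ciliated level in secretory cells of every library, so they were not shown to be broadly present. Dnah14 was placed here on 15 and 54 fibroblast UMIs of control dorsal and control ventral. Cfap20, a microtubule inner protein, was at 357, 333, 351 and 340.1 CPM in ciliated cells and at 64.1, 63.9, 69.8 and 61.4 in fibroblasts. Cfap36 was at 325, 289.7, 306 and 252 in ciliated cells and at 37.3, 32.8, 42.0 and 29.6 in fibroblasts. Both were thus well above the background of restricted genes in cells without motile cilia. Cfap97 was at 27.2, 28.4, 28.0 and 29.97 in ciliated cells and at 10.7, 14.7, 17.2 and 18.8 in fibroblasts. Cfap410, also found at the base of primary cilia, was at 66.6, 69.1, 65.0 and 70.7 against 11.2, 10.4, 11.2 and 11.002, and Cfap418 at 66.7, 64.8, 57.0 and 72.3 against 11.2, 8.91, 13.1 and 10.2. Dnah8, the sperm counterpart of Dnah5, went the other way, with 8.39, 8.61, 5.37 and 7.88 in ciliated cells and 14.5, 19.4, 7.16 and 12.9 in fibroblasts. Dnah17, the sperm counterpart of Dnah9, gave 2, 6, 2 and 1 UMIs in ciliated cells and 36, 84, 8 and 42 in fibroblasts, or 1.84, 3.11, 0.610 and 3.25 CPM. Both sperm genes were thus higher in fibroblasts than in ciliated cells of every library, though on small counts.

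The heavy chains were lowest in the knockout dorsal library and highest in the knockout ventral library. Together the 15 genes were at 4746, 5752, 3404 and 6544 CPM in ciliated cells (95% Poisson intervals 4720.1 to 4773, 5712 to 5793, 3349 to 3459.7 and 6478 to 6609), while the other 59 genes were at 15430.4, 15824, 13442 and 16592. Each group was 1 library, so no test of a difference between conditions was possible and no p-value is given. All intervals cover counting error only, and cells were not treated as replicates. Less axoneme RNA per cell and more RNA of other genes in the same class cannot be told apart in these sums.

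Outer arm heavy chains followed that order. Dnah5 was at 869, 1103, 612 and 1152 CPM, so the knockout to control ratio was 0.704 (0.676 to 0.733) dorsally and 1.04 (1.02 to 1.08) ventrally, the latter 0.906 with doublets kept. Dnah9, the chain of the distal part of the cilium, was at 494, 776, 327 and 949.7, and had the widest regional spread of the abundant heavy chains. Its dorsal to ventral ratio was 0.637 (0.621 to 0.654) in controls and 0.344 (0.325 to 0.365) in knockouts. Dnah11, the chain of the proximal part, was at 198, 256, 136 and 287, with dorsal to ventral ratios of 0.776 (0.744 to 0.811) and 0.473 (0.430 to 0.520). In all 3 genes both dorsal libraries lay below both ventral libraries.

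Inner arm heavy chains mostly did the same. Dnah3 was at 451, 503, 271 and 595 CPM, with knockout to control ratios of 0.600 (0.564 to 0.637) dorsally and 1.18 (1.14 to 1.23) ventrally. Dnah6 was at 615, 733, 492 and 861, and Dnah12 at 866, 969.8, 666 and 1195. Dnah12 had ratios of 0.769 (0.739 to 0.799) dorsally and 1.23 (1.20 to 1.27) ventrally. The chains of inner arm dynein f, Dnah2 and Dnah10, were at 132, 170.1, 92.1 and 188 and at 288, 363, 187 and 339. In the ventral pair they parted, with Dnah2 at 1.10 (1.02 to 1.19) and Dnah10 at 0.933 (0.885 to 0.983). Dnah1, at 169, 206, 101 and 181, was likewise lower in the ventral knockout, at 0.877 (0.816 to 0.941). Dnah7a (199.6, 196, 184 and 251), Dnah7b (190.3, 191, 142 and 226) and Dnah7c (259.9, 271, 186 and 302) are near-identical copies that can share reads, so their separate values are uncertain. Their control dorsal to ventral ratios were 1.02 (0.970 to 1.06), 0.995 (0.949 to 1.04) and 0.959 (0.921 to 0.998), the closest to 1 of the abundant heavy chains. Dnah14 was rare, with 97, 63, 9 and 59 UMIs (3.66, 4.64, 2.10 and 10.1 CPM), and its ventral knockout to control ratio was 2.18 (1.501 to 3.16), where 1.26% of features were past 2-fold higher.

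Set against the rest of the transcriptome, heavy chains leaned further in each comparison than the other axoneme genes. A gene was measured with at least 20 UMIs in ciliated cells of 1 library of the pair, which 14 of 15 heavy chain genes (not Dnah17) and 56 of the other 59 reached, and log2 ratios had 0.5 UMIs added to each count. For dorsal against ventral in controls the median log2 ratio was -0.27 over heavy chains, -0.03 over the other members and -0.08 over all 14988 measured features. The interval lay wholly below 1 for 10 of 14 heavy chains and 21 of 56 others, against 29.3% of all features, and wholly above 1 for 0 and 14, against 14.9%. Between the knockout libraries the medians were -0.85, -0.29 and -0.27 (12116 features), with intervals below 1 for 13 of 14 and 38 of 56, against 38.4%, and above 1 for 0 and 6, against 9.87%. Levels were scaled to all UMIs of the class; a size factor set at the median ratio of all features shifts every log2 ratio of the 4 comparisons by 0.08, 0.22, 0.16 and -0.04. With it, intervals lay below and above 1 for 9 and 2 of 14 heavy chains and 9 and 24 of 56 others between control regions (21.4% and 22.9% of features), and for 13 and 0 and for 26 and 12 between knockout regions (22.9% and 20.1%). The lean of the other members between control regions therefore turned with the scaling, and that of the heavy chains did not. Past 2-fold lower in knockouts without it were 5 heavy chains (Dnah2, Dnah3, Dnah9, Dnah11 and Dnah14) and 3 others (Cfap20dc, Cfap54 and Cfap107), against 10.4% of features.

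Knockout against control, the heavy chains leaned opposite ways in the 2 regions. Dorsally the median log2 ratio was -0.53 for heavy chains, -0.25 for the other members and -0.17 for all 14780 features, and intervals lay below 1 for 13 of 14 and 38 of 56, against 28.1%, and above 1 for 0 and 4, against 7.97%. Ventrally the medians were 0.20, 0.078 and 0.02 (13956 features), and intervals lay above 1 for 11 of 14 and 19 of 56, against 15.2%, and below 1 for 2 and 5, against 11.1%. Of the 14 heavy chains, 10 were lower dorsally and higher ventrally by their intervals (Dnah2, Dnah3, Dnah5, Dnah6, Dnah7a, Dnah7b, Dnah7c, Dnah9, Dnah11 and Dnah12), as were 16 of the 56 others. The share of all features that were lower dorsally and higher ventrally was not counted, so these counts have no background beside them. With the size factor, intervals lay below and above 1 for 11 and 0 of 14 and for 23 and 11 of 56 dorsally (14.9% and 15.2% of features), and for 2 and 9 and for 6 and 16 ventrally (13.9% and 12.2%). It put Dnah7a at 1.03 (0.953 to 1.11) dorsally and Dnah5 at 1.02 (0.989 to 1.05) ventrally. The ventral direction depended on the removal of doublets: with the 33 removed cells of the knockout ventral library kept, the ventral medians were -0.02 and -0.12. The difference between the regions was not tested, since each region has 1 library of each genotype.

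The share of heavy chains within axoneme RNA has only the UMIs of the 74 genes in it, so RNA of other genes does not enter it. It was 23.5% (exact binomial interval 23.4 to 23.6), 26.7% (26.5 to 26.8), 20.2% (19.9 to 20.5) and 28.3% (28.0 to 28.5) of those UMIs. Over single cells with at least 50 such UMIs (1132, 467, 98 and 156 cells) the medians were 23.0%, 25.5%, 19.0% and 27.6%, in the same order. Over 7 ways of drawing the ciliated class, doublets kept and secretory RNA limited among them, the shares ranged from 23.2% to 23.8%, 26.3% to 27.1%, 19.8% to 20.4% and 27.8% to 28.4%. These ways draw largely the same cells of each library, so the ranges give no spread between libraries or animals. The share also moved with the strength of the ciliated markers. Within the cells at 20 to 50 marker UMIs per 10000, the most numerous band, it was 23.3%, 26.5%, 19.6% and 27.6%.

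**Figure D2:**
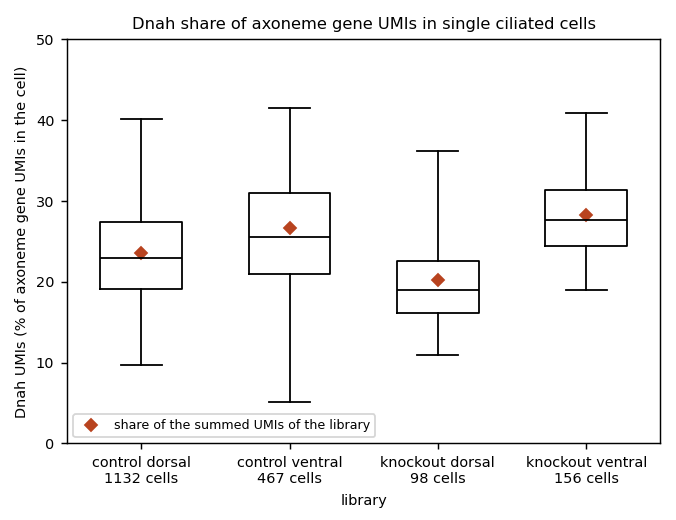
Share of heavy chain UMIs among the UMIs of all 74 genes (vertical axis, percent) in ciliated cells with at least 50 such UMIs, by library. Boxes are quartiles over cells, whiskers run from the 5th to the 95th percentile and diamonds are the summed share, which is 20.2% in the knockout dorsal and 28.3% in the knockout ventral library.

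Other long transcripts leaned the same way as the heavy chains. Among the 10 other members with coding sequences of at least 3000 bases the medians were -0.13 (dorsal against ventral, controls), -0.70 (the same, knockouts), -0.38 (knockout against control, dorsal) and 0.15 (the same, ventral). Among the 44 shorter ones they were -0.01, -0.23, -0.23 and 0.06. Across 68 members with a known coding length the Spearman correlation of log2 ratio and length was -0.50, -0.73, -0.69 and 0.37, and across all features with a length it was -0.11, -0.40, -0.30 and 0.14. These are descriptions over genes of the same libraries. Features outside the set with coding sequences of at least 9000 bases had medians of -0.16, -0.69, -0.37 and 0.11 in ciliated cells (96, 79, 90 and 92 features). In the dorsal knockout to control pair such long features were also low in basal (-0.42), secretory (-0.40) and fibroblast cells (-0.46), which make no motile cilia. In the ventral pair they were at -0.11, 0.017 and -0.089 in these classes. Between the control regions they were at -0.36, 0.036 and -0.17, and between the knockout regions at -0.62, -0.32 and -0.62.

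**Figure D3:**
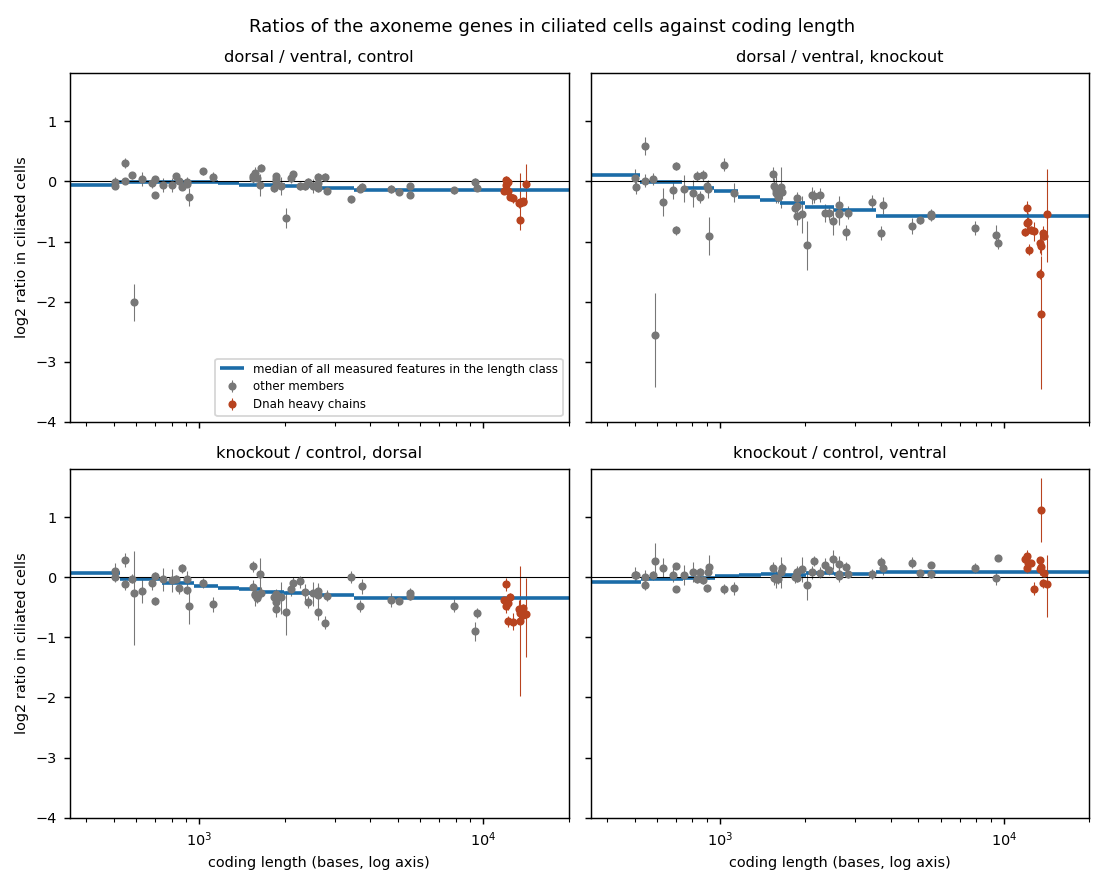
Log2 ratio of each measured member in ciliated cells (vertical axis, with 95% counting intervals) against its coding length in bases (log axis) for the 4 comparisons, with the median of all measured features of each length class as a blue line. Heavy chains sit at the right end, mostly below 0 in the first 3 comparisons and mostly above 0 in the ventral knockout to control pair, and the blue line bends the same way.

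Taking off the median of all features of the same length class brought the heavy chains to -0.13, -0.27 and -0.19 in the comparisons that had been at -0.27, -0.85 and -0.53, so that part of the difference was common to features of that length. With classes of gene span in place of coding length, chosen after seeing the data, the heavy chains were at -0.064, -0.23 and -0.15 in these comparisons and at 0.093 in the ventral pair. Weighting each cell equally put them at -0.058 between the control regions. The heavy chains kept their order against the other members: heavy chain minus other medians were -0.24, -0.56, -0.28 and 0.12, and over 14 settings they ranged from -0.25 to -0.11, -0.77 to -0.23, -0.47 to -0.14 and 0.07 to 0.14. Settings that only rescale the libraries shift both medians alike and cannot move this difference. They are the size factor and a total without mitochondrial and ribosomal protein genes. The comparisons of the knockout regions and of the dorsal pair share the knockout dorsal library, in which Neat1 was at 102 CPM, and its part in the result was not tested.

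The 4 intermediate chain genes, which are short, give a comparison within the same complexes. Dnai1, of the outer arm, was at 188, 182, 164 and 192 CPM, and its partner Dnai2 at 205, 199, 141 and 210.3. Between the control regions Dnai2 was at 1.03 (0.984 to 1.08), without the ventral excess of Dnah5 at 0.788 (0.772 to 0.805). Dnai3, of inner arm dynein f, was at 278, 263, 165 and 296, with knockout to control ratios of 0.592 (0.547 to 0.640) dorsally and 1.13 (1.06 to 1.19) ventrally. Its partner Dnai4 was at 321, 322, 241 and 349. The dorsal ratio of Dnai3 thus lay near the low end of the heavy chains, which ran from 0.574 (Dnah14) to 0.923 (Dnah7a). Dnah14 was rare, so that low end rests on few UMIs.

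Radial spokes reach from the outer doublets towards the central pair. Of the spoke head, Rsph1 was at 637, 658, 551 and 578 CPM, Rsph9 at 491, 460.0, 479 and 452 and Rsph4a at 271, 250.3, 254 and 302. Rsph1 was lower in both knockouts, at 0.865 (0.828 to 0.903) dorsally, or 0.964 (0.923 to 1.01) with the size factor, and 0.878 (0.844 to 0.914) ventrally, whereas Rsph4a was higher ventrally at 1.21 (1.14 to 1.28). Rsph14 was at 173, 164, 126 and 144, which put it at 0.730 (0.666 to 0.798) of control in the dorsal knockout. Members of the nexin-dynein complex, which links neighbouring doublets, were at 232, 245, 221 and 258 (Drc1), 423, 402, 345 and 394 (Drc3) and 187, 178, 125 and 182 (Drc7). Drc7 was at 0.670 (0.612 to 0.733) of control in the dorsal knockout.

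Cfap54, a large central apparatus protein, was at 524, 568, 347 and 709 CPM, with knockout to control ratios of 0.662 (0.627 to 0.699) dorsally and 1.25 (1.20 to 1.30) ventrally. Cfap47, also of the central apparatus, was at 160.3, 162, 85.8 and 160.1, which put it at 0.535 (0.480 to 0.595) dorsally and 0.991 (0.917 to 1.07) ventrally. Cfap74 of the same structure was at 202, 221, 156 and 262. Cfap46, likewise of the central apparatus, was at 267, 295, 192 and 329, and Cfap221 at 66.6, 70.5, 55.2 and 86.8. Cfap61 of the spoke base was at 280.5, 306, 202 and 366. Cfap206 of the spoke base was at 388, 392, 319 and 388, and its ventral knockout to control ratio was 0.989 (0.941 to 1.04). Cfap43 and Cfap44, which tether an inner arm dynein, were at 850.1, 961, 648 and 1012 and at 619.9, 649.9, 499 and 748. Cfap65 was at 388, 455, 323 and 473 and Cfap70 at 214, 263, 215 and 274, both lower dorsally in controls. Cfap299 was at 634, 741, 481 and 843 although its coding sequence is only 699 bases long; its gene spans 472.7 kb.

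Cfap141, a microtubule inner protein, was at 1222, 1247, 1319 and 1365 CPM, higher in both knockouts (1.08, 1.05 to 1.11, dorsally, and 1.09, 1.07 to 1.12, ventrally, the latter 0.963 with doublets kept). Cfap276 was at 124, 126, 134 and 129, and Cfap53 at 222, 208, 251 and 231. Cfap126, known from the docking of basal bodies, was at 817, 796, 833 and 698, and its ventral knockout to control ratio was 0.876 (0.845 to 0.909). Cfap45 was at 312, 267, 261 and 296, higher dorsally in controls (1.17, 1.13 to 1.22) and lower dorsally in knockouts (0.884, 0.819 to 0.953, but 1.03 with the size factor). Cfap68 was at 298, 296, 274 and 272.

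Cfap90 and Cfap107, 2 further inner proteins, leaned opposite ways between the regions. Cfap90 was at 148, 121, 181 and 120.4 CPM, so its dorsal to ventral ratio was 1.23 (1.16 to 1.30) in controls and 1.50045 (1.35 to 1.66) in knockouts. Cfap107 was at 4.91, 19.9, 3.97 and 24.0, from 130, 270, 17 and 140 UMIs, with ratios of 0.247 (0.199 to 0.306) and 0.166 (0.0939 to 0.275). No other measured member was past 2-fold between the control regions, where 5% of features were past 2-fold lower. Knockout and control did not part Cfap107 beyond counting error, at 0.809 (0.457 to 1.35) dorsally and 1.21 (0.976 to 1.48) ventrally. Basal cells held 0 UMIs of Cfap107 in every library, and by the limit of 3 UMIs that a count of 0 allows this is at most 0.0598, 0.120, 0.107 and 0.200 CPM.

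The regional ratios of the control pair and of the knockout pair, which share no library, resembled each other. Over 70 members the Pearson correlation was 0.77 and the Spearman correlation 0.70, against 0.59 and 0.44 over 12092 features. Of the members 46 were below 1 in both pairs and 7 above 1 in both, and of the 12092 features 5959 and 2044 were. The knockout to control ratios of the dorsal and of the ventral pair had correlations of -0.21 and -0.19 over the members, against 0.09 and -0.01 over 13724 features. Genes of 1 library share its depth and composition, so these values describe the libraries.

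**Figure D4:**
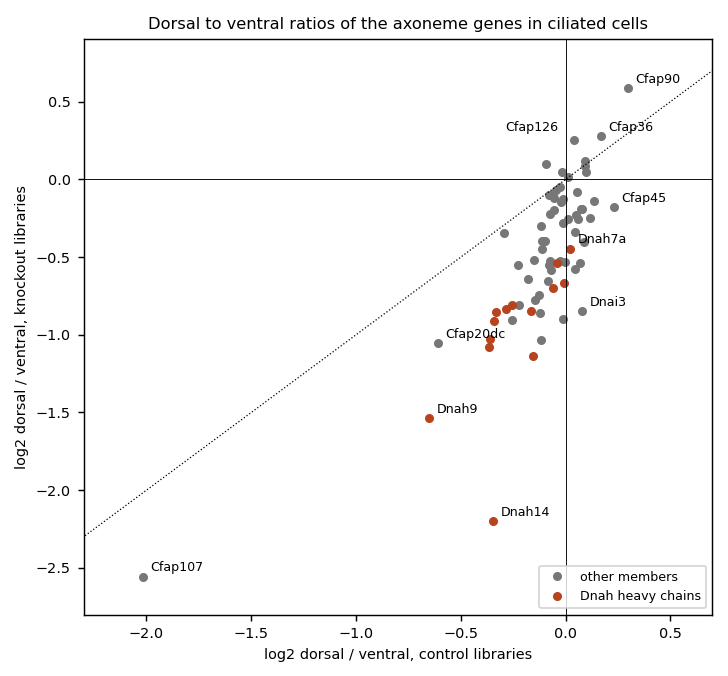
Log2 of the dorsal to ventral ratio of each member in ciliated cells of the control libraries (horizontal axis) and of the knockout libraries (vertical axis), with heavy chains and other members in different colours and the line of equal ratios dotted. Cfap107 lies far to the lower left and Cfap90 at the upper right, and most heavy chains lie below the dotted line.

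Partner genes of the pathway, taken from lists of genes outside the set, were described in the same ciliated cells by how many lay above 0 knockout against control. Regulators of ciliogenesis had medians of -0.49 dorsally (2 of 10 above 0) and 0.15 ventrally (8 of 10). Foxj1 was at 0.706 (0.678 to 0.734) of control dorsally and 1.05 (1.01 to 1.08) ventrally, or 0.907 ventrally with doublets kept. Genes of centriole amplification, the early step in which a cell makes its many basal bodies, were at -0.84 dorsally (0 of 13 above 0, 5 past 2-fold lower, against 6.95% of features) and -0.03 ventrally (5 of 12, with 4 past 2-fold lower, against 3.32%). Cdc20b of that list was at 7.74, 5.96, 1.40 and 1.54 CPM, 0.181 (0.0657 to 0.401) of control dorsally and 0.258 (0.114 to 0.515) ventrally. Dynein assembly factors were at -0.24 and 0.04 (3 and 10 of 17 above 0), the outer arm docking complex at -0.28 and 0.10 (0 and 5 of 5) and dynein light chains at -0.09 and -0.18 (4 and 1 of 10). Members of the ruler, nexin link and spokes outside the set were at -0.23 and -0.02 (0 and 8 of 16), other central apparatus genes at -0.38 and 0.13 (2 and 12 of 14), other microtubule inner proteins at -0.26 and 0.06 (4 and 11 of 18) and cilia tubulins at -0.27 and -0.07 (3 and 4 of 8). Intraflagellar transport genes, which carry parts along the cilium, were at -0.16 and 0.05 (4 and 15 of 28), and other ciliated cell genes at -0.04 and -0.08 (5 and 6 of 16). Over all features the medians were -0.17 and 0.02, so most features also lay below 0 dorsally. The share of all features above 0 is not given here, so the counts above 0 have no background beside them. The size factor adds 0.16 to each dorsal median, which turns those of dynein light chains and other ciliated cell genes above 0 and brings that of intraflagellar transport to 0.

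Outside ciliated cells a few restricted genes stood clear of the background. Cfap68, Cfap20dc, Cfap298, Rsph3a, Rsph3b and Cfap43 reached 10 times the median percentage of the restricted genes in basal and secretory cells of every library. Of these only Cfap68 and Rsph3b did so in fibroblasts of every library. In fibroblasts Rsph3a fell short in control dorsal alone (4.61% of its ciliated level). Cfap298 fell short there in the control libraries alone (4.76% dorsal and 4.21% ventral). Rsph3a and Rsph3b, of the spoke stalk, are near-identical copies whose reads may be split between them. Cfap43 was at 36.8, 51.0, 29.1 and 38.5 CPM in basal cells and at 5.47, 6.91, 4.80 and 7.59 in fibroblasts.

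Cfap20dc and Cfap298, shown above with the palindromic X-box, had opposite regional patterns in basal cells. Cfap20dc was at 12.2, 27.3, 12.3 and 26.6 CPM in basal cells, and the dorsal cells held 0.446 (0.399 to 0.498) of the ventral level in the control pair and 0.462 (0.399 to 0.535) in the knockout pair, where intervals lay below 1 for 37.3% and 40% of all features. Secretory cells gave 6.16, 12.7, 6.82 and 15.8 and ciliated cells 24.9, 37.8, 16.6 and 34.6, ventral again above dorsal, while fibroblasts had 16, 32, 0 and 6 UMIs in all. Cfap298, a dynein assembly factor, was at 45.9, 30.3, 71.1 and 29.3 in basal cells, with ratios of 1.51 and 2.43, where intervals lay above 1 for 28.7% and 23.1% of features. In ciliated cells it was at 362, 386, 402 and 375, so the regional gap in basal cells had no counterpart of that size there.

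The heavy chains did not all lean one way between the regions in basal cells. The interval lay below 1 for 7 of 12 measured ones and above 1 for 1 in controls, and below for 5 of 10 and above for 2 in knockouts, beside the shares of all features given above. Dnah8 was dorsally higher in controls at 2.26 (1.51 to 3.47), and Dnah7c (2.32, 1.11 to 5.45) and Dnah7b (1.25, 1.03 to 1.53) were so in knockouts. Over the measured ones the basal dorsal to ventral median was -0.82 in controls (12 genes) and -0.45 in knockouts (10 genes), against 0.14 and 0.48 for the other members (45 and 32 genes) and -0.08 and -0.14 for all features. Dnah12 was at 5.68, 18.6, 8.27 and 14.6 CPM in basal cells, beside 13.2, 15.8, 5.56 and 12.9 in fibroblasts. Its dorsal to ventral ratio in controls was 0.306 (0.263 to 0.355) in basal cells and 0.837 (0.714 to 0.979) in fibroblasts. In knockouts these ratios were 0.567 (0.470 to 0.686) and 0.432 (0.324 to 0.573). Whether its basal level is background was not tested. Dnah9 (2.29, 6.12, 3.24 and 6.72), Dnah11 (2.29, 5.52, 1.43 and 5.39) and Dnah2 (1.38, 4.52, 1.96 and 5.46) had the same ventral excess in basal cells. Dnah2 also had it in fibroblasts, at 3.99, 12.5, 2.36 and 11.002.

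In secretory cells Dnah12 and Cfap58 departed from the background, but in control dorsal both lay below their level in fibroblasts. Dnah12 was at 12.7, 41.4, 36.2 and 35.7 CPM there, which put control dorsal at 0.305 (0.284 to 0.328) of control ventral, where 7.04% of features were past 2-fold lower, and knockout dorsal at 2.86 (2.69 to 3.04) times control dorsal, where 4.53% of features were past 2-fold higher. The ventral ratio was 0.861 (0.793 to 0.935). With cells thinned to 5000 UMIs, 4.94%, 13.4%, 10.4% and 13.1% of secretory cells held a UMI of it, against 5.26%, 6.26%, 1.71% and 4.78% of fibroblasts. Median depths before thinning were 36990, 32051, 49806 and 57371.5 UMIs in secretory and 9338, 12171, 11464 and 10583.5 in fibroblast cells. The control dorsal secretory share was below that of fibroblasts, and the other 3 shares were above it. In control dorsal Dnah12 was at 1.46% of its ciliated level in secretory cells and at 1.52% in fibroblasts. The medians of the restricted genes there were 0.277% and 0.568%. Whether its control dorsal secretory level is background was not tested. Cfap58, known from assembly of the sperm flagellum, was singled out after its values were seen. It gave 38, 26, 215 and 97 UMIs in secretory cells, or 0.293, 0.755, 2.93 and 3.60 CPM, and 0.358, 0.0739, 0.0762 and 0.232 in fibroblasts. Knockout to control ratios were 10.0 (7.06 to 14.5) dorsally and 4.77 (3.07 to 7.66) ventrally, where 4.53% and 1.07% of features were past 2-fold higher. The UMIs lay in 31 of 3432, 16 of 851, 118 of 1336 and 41 of 452 cells, and the fullest cell held 2, 5, 11 and 9 of them. As shares these were 0.903%, 1.88%, 8.83% and 9.07% of secretory cells, against 0.347%, 0.0934%, 0.0913% and 0.258% of the shallower fibroblasts and at most 1.22% of basal cells, whose depth lies between. Depth enters these shares, and both knockout libraries were deeper in secretory cells. With cells thinned to 5000 UMIs, 0.157%, 0.289%, 0.972% and 1.21% of secretory cells held a UMI of Cfap58. In control dorsal the thinned shares of fibroblasts and basal cells were 0.164% and 0.266%. In ciliated cells Cfap58 was at 91.5, 93.1, 74.8 and 108, with no such excess in knockouts. With doublets kept the secretory levels were 0.299, 0.743, 2.998 and 3.48.

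In fibroblasts, Cfap53 and Cfap74 were above the median percentage of the restricted genes and ventral in both genotypes. They fell short of 10 times that median in control dorsal alone, at 4.65% and 5.26% of their ciliated level against 0.568%. In every other library both exceeded 10 times its median, as in knockout ventral, at 8.15% and 8.29% against 0.394%. Cfap53 was at 10.3, 18.2, 11.1 and 18.8 CPM, with dorsal to ventral ratios of 0.566 (0.478 to 0.668) and 0.587 (0.474 to 0.724). Cfap74 was at 10.6, 18.8, 9.52 and 21.7, with ratios of 0.566 (0.479 to 0.666) and 0.439 (0.353 to 0.544). Intervals below 1 were found for 33.2% and 43.7% of all features in fibroblasts, so a ventral lean was common in that class.

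**Figure D5:**
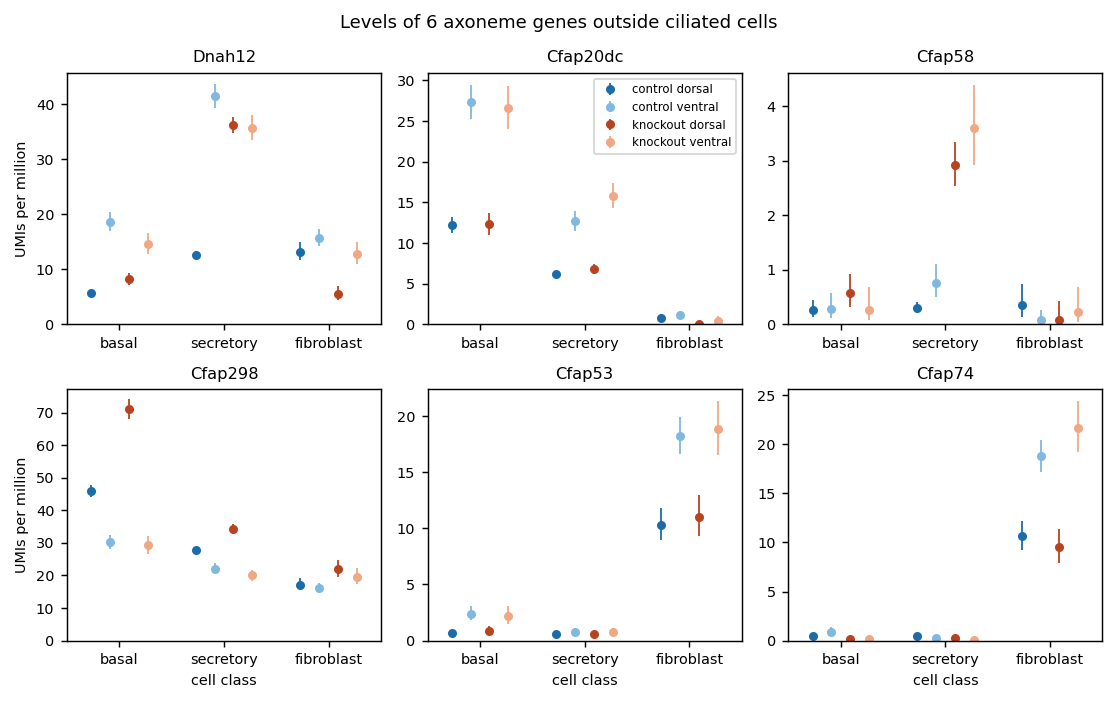
Levels of Dnah12, Cfap20dc, Cfap58, Cfap298, Cfap53 and Cfap74 in basal, secretory and fibroblast cells (vertical axis, CPM, with 95% Poisson intervals) in the 4 libraries. Cfap58 is visible in secretory cells of the 2 knockout libraries, at 2.93 and 3.60, and Cfap53 and Cfap74 in fibroblasts lie between 9.52 and 11.1 in dorsal and between 18.2 and 21.7 in ventral libraries.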

How the data were processed

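The authors deposited sparse matrices of raw UMI counts, 1 per library, made with Cell Ranger 10.0.0 on GRCm39, per the submitters' processing notes. The kit was a 10x Genomics GEM-X 5′ v3 kit, per the labels' protocols. The annotation release, and whether intronic reads were counted, is not given in the sources used here, and either could change the level of a long gene.

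A barcode was kept with 500 genes or more and no more than 15% mitochondrial UMIs. Doublets were called in each library by Scrublet (scanpy 1.11.5). The automatic threshold was used unless its call fell outside 0.5% to 20%, as in the knockout ventral library, where 0.4% per 1000 barcodes was removed instead. In all 275, 51, 65 and 206 cells were removed. Cells that met the rules of more than 1 class were left out, except that ciliated cells could hold any level of Scgb1a1, and the other classes had to hold under 1 ciliated marker UMI per 10000. Counts were summed per class and library. Levels carry exact Poisson intervals, or at a count of 0 the limit of 3 UMIs, ratios conditional binomial intervals and shares Clopper-Pearson intervals, all at 95% (scipy 1.17.1, numpy 2.4.6, pandas 2.3.3). The ratio intervals were tested on simulated data. Coding lengths and gene spans came from GENCODE M21 (GRCm38), matched by Ensembl identifier, and no coordinates were taken from it.

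The genes, the lists and the comparisons were chosen with earlier results of these data known. Named genes were all heavy chains with at least 20 UMIs in ciliated cells of 1 library, and for each comparison the 5 other members with the highest lower bound and the 5 with the lowest upper bound. The 5 members with the highest ciliated level in control dorsal, and members at or above 10% of the ciliated level in fibroblasts of both controls, were named too. The other genes given by value are of the same complexes, stood clear of the background outside ciliated cells or were chosen after their values were seen.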

Additional observations from a re-analysis of the deposited data

Results flagged for a closer look

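Knockout against control, ciliated cells of the dorsal and of the ventral region leaned opposite ways in both parts of the gene set. The median log2 ratio of the dynein heavy chains was -0.53 dorsally and 0.20 ventrally, and that of the other members was -0.25 dorsally and 0.078 ventrally. Each region has 1 library of each genotype, so the difference between the regions was not tested. With doublets kept the ventral medians were -0.017 (heavy chains) and -0.12 (other members), so the regions no longer leaned opposite ways. Beside it, Scgb1a1 in the same cells was at 23729 and 48108 CPM in the dorsal control and knockout libraries and at 3426 and 342 in the ventral ones, and its part in the difference was not tested.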

How the results depend on the processing

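No paired analysis was possible because each group is 1 library. Medians are given for heavy chains and then for the other members, where c marks dorsal against ventral in controls, k the same in knockouts, d knockout against control dorsally and v ventrally. As reported they were -0.27 and -0.027 (c), -0.85 and -0.29 (k), -0.53 and -0.25 (d) and 0.20 and 0.078 (v). A median-of-ratios size factor, which shifts all log2 ratios by 0.082 (c), 0.22 (k), 0.16 (d) and -0.038 (v), gave -0.19 and 0.054 (c), -0.63 and -0.068 (k) and -0.38 and -0.093 (d). Keeping doublets gave -0.65 and -0.094 (k) and turned v to -0.017 and -0.12. Weighting each cell equally gave -0.058 and 0.056 (c), -0.067 for the others (k) and 0.12 for heavy chains (v). Taking off the median of the coding length class gave -0.13 (heavy chains, c), -0.27 and -0.034 (k) and -0.19 and -0.029 (d).

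Some alternatives were added after seeing the data. Taking off the median of the gene span class gave -0.064 and 0.057 (c), -0.23 and -0.0013 (k), -0.15 and -0.017 (d) and 0.093 for heavy chains (v). Ciliated cells under 50 Scgb1a1 UMIs per 10000 (1070, 629, 114 and 219 cells) gave -0.14 and 0.080 (c) and -0.65 and -0.026 (k). The same with doublets kept gave -0.16 and 0.061 (c), -0.60 and 0.014 (k) and 0.098 and -0.017 (v). The same with at least 5000 UMIs per cell gave -0.17 and 0.086 (c) and -0.64 and -0.034 (k). With doublets kept the ventral ratios of Dnah5 (0.906), Cfap299 (0.999), Cfap141 (0.963) and Foxj1 (0.907) lay below 1, and with the Scgb1a1 limit as well those of Dnah5 (0.990) and Foxj1 (0.982) did. The heavy chain share of axoneme RNA in control dorsal was 23.7% or 23.2% with the marker minimum at 2 or 10 per 10000, 23.7% under the Scgb1a1 limit with and without doublets, and 23.8% with at least 5000 UMIs as well. It was 26.3% (minimum of 10) and 27.1% (limit and 5000 UMIs) in control ventral, 19.8% (limit, with and without doublets) in knockout dorsal, and 27.8% (minimum of 10) and 28.0% (doublets kept) in knockout ventral. The other settings moved these values by less than the counting interval, and the cause of these moves was not tested. Depth limits the rare genes: in the knockout dorsal library Dnah14 rests on 9 UMIs and Cfap107 on 17.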

Other observations

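Within the ciliated class the heavy chain share of axoneme RNA was lower in cells with stronger markers, in all 4 libraries. In cells with 5 to 10 UMIs of Tmem212 and Ccdc153 per 10000 it was 35.1%, 39.5%, 40.2% and 43.8% (71, 50, 3 and 18 cells, with median depths of 5490.0, 3206, 2418 and 2327.5 UMIs). At 10 to 20 it was 27.7%, 30.5%, 24.2% and 33.8%, and above 50 it was 20.5%, 20.9%, 17.8% and 5.36% (277, 108, 15 and 16 cells). The 16 cells above 50 of the knockout ventral library had a median of 1638.5 UMIs, the shallowest of these bands. Scgb1a1 moved with the bands in the dorsal libraries: it was at 111735, 118705, 6597 and 1359 CPM in control dorsal cells with 5 to 10, 10 to 20, 20 to 50 and over 50 marker UMIs per 10000, and at 12518, 189777, 7172 and 1088 in knockout dorsal ones. In control ventral cells it was at 10364, 30502, 410.1 and 337. Its part in the pattern was not tested.

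In fibroblasts Cfap299 was at 1.58, 1.997, 6.86 and 1.39 CPM (31, 54, 90 and 18 UMIs). Its level was highest in the knockout dorsal library, where most long members were low. With cells thinned to equal depth as above, 0.768%, 0.560%, 0.402% and 0.955% of fibroblasts held a UMI of Cfap299. That share was lowest in the knockout dorsal library, so the higher level there did not come with more cells holding the RNA. Cfap276 was at 0.715, 1.41, 0.914 and 4.65 CPM in fibroblasts (14, 38, 12 and 60 UMIs), highest in the knockout ventral library. Both genes were chosen after their values were seen.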
